A study of Mus musculus with 8 samples.

Results

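Histone genes of mouse pro-B cells were followed with and without menin, on 53 of the 45037 probe sets of an expression array. A probe set, a group of short probes read as 1 value, was taken where every gene it is annotated to has an older symbol starting with Hist1h, Hist2h, Hist3h, Hist4h, H1f, H2af or H3f, without H2afx. Of these, 34 belong to replication-dependent histones (5 for H1, 6 for H2A, 10 for H2B, 8 for H3 and 5 for H4) and 19 to replacement histones. They stand for 68 of the 19337 genes named in the platform table, and 19 probe sets carry several of them, up to 13 on 1 probe set, so near-identical copies were often read as 1 signal. Pro-B cells of Fraction B were sorted from bone marrow by surface B220, CD43 and HSA and by the absence of BP-1. The 4 control mice were MenF/F, with a floxed Men1 gene and no Cre, and the 4 menin-deficient mice were Rag1-cre;MenF/F, with the same floxed gene and Cre under Rag1 control. All 8 mice were 2 to 3 weeks old, and each gave 1 array. Cre was present in all menin-deficient mice and in no control, so an effect of the recombinase and one of losing menin cannot be told apart.

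Histones are the proteins around which nuclear DNA is wound. H2A, H2B, H3 and H4 form the core of the nucleosome and H1 sits on the linker DNA. Replication-dependent histones are encoded by clustered, mostly intronless genes that are transcribed in S phase, when new DNA has to be packed, and their mRNAs end in a stem-loop and mostly lack a poly(A) tail. Replacement histones are encoded by single genes with ordinary polyadenylated mRNAs, are made throughout the cell cycle and are placed by chaperones of their own: H3.3, H2A.Z and the macroH2A proteins, which carry a large macrodomain and are known from the inactive X chromosome. Menin, the product of Men1, joins the MLL (Kmt2a) complex, which methylates histone H3. The amplification kit named in the labels primes cDNA from poly(A), and how much of each replication-dependent mRNA it caught was not tested.

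Men1 served as the check of the labels. Its brightest probe set fell from 9.54 ± 0.256 to 8.15 ± 0.278 (log2 signal, mean ± SD, n = 4 each), a log2 difference of -1.39 (adjusted p = 0.00617). The other Men1 probe sets differed by -1.38 and -0.37. All values below are log2 signals, differences are menin-deficient minus control, and p-values are from limma, adjusted over all 26790 tested probe sets by Benjamini and Hochberg, with a threshold of 0.05. Array medians lay between 3.29 and 3.50, correlations between arrays between 0.985 and 0.995, and the lowest value in the table was 2.08. The summed level of 9 pro-B markers, in log2, was 18.26 to 18.30 in control and 18.32 to 18.46 in menin-deficient arrays. In bulk RNA, fewer cells of a type and less RNA per cell cannot be told apart.

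Replication-dependent histones that changed were all lower in menin-deficient cells, while among replacement histones Macroh2a2 was higher. Of 31 replication-dependent probe sets tested, 6 fell, none rose and 25 did not pass the threshold. At an unadjusted p under 0.05, 11 were lower and 0 higher. Over all tested probe sets, 14.2% were called, 4.87% lower and 9.34% higher, so that 65.7% of all calls were higher (51.7% after quantile normalization and 52.3% with arrays centred on the median tested probe set). The median difference of the 31 was -0.22, with a range from -1.22 to 0.78, beside a median of 0.04 over all tested probe sets. The difference was negative in 25 of them and positive in 6. In 7 of the 31 every menin-deficient array lay below every control array and in 0 above, against 7.05% and 14.3% of all tested probe sets. Of 13 replacement probe sets tested, 2 rose, none fell and 11 did not pass, and at an unadjusted p under 0.05 there were 3 higher and 0 lower. Their median difference was -0.01, with a range from -0.43 to 1.77, and 3 had all menin-deficient arrays above all controls. The other 9 members, 3 replication-dependent and 6 replacement, did not pass the filter on low values and were not tested.

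**Figure D1:**
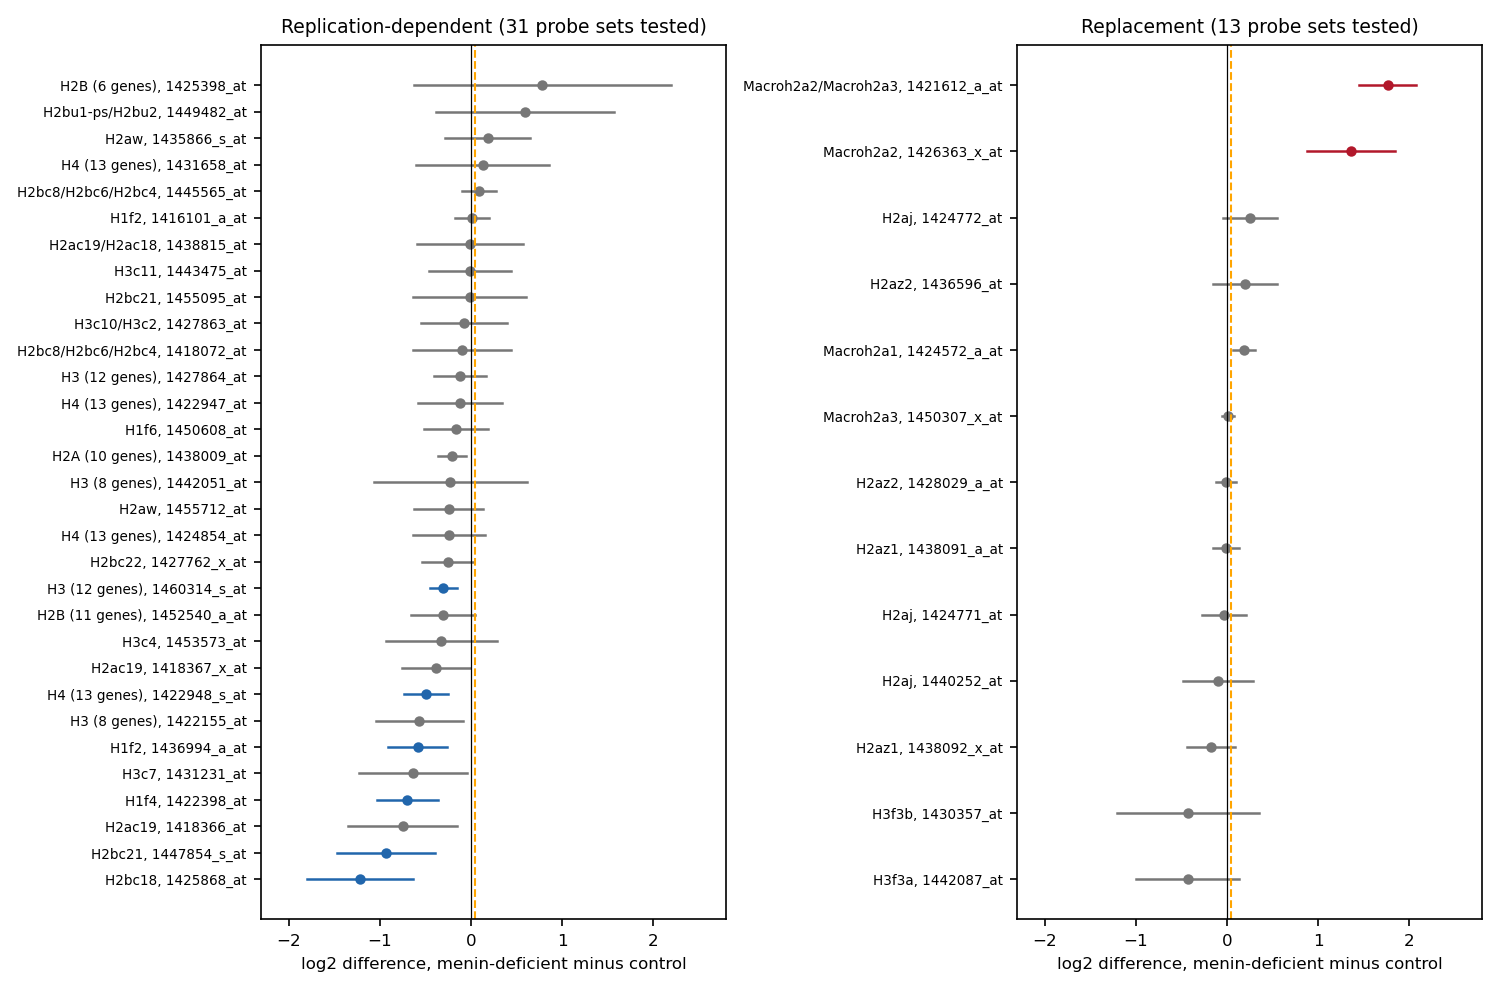
Log2 difference, menin-deficient minus control, of each tested histone probe set with its 95% confidence interval, replication-dependent on the left and replacement on the right; blue marks probe sets called lower, red called higher, grey not called, and the dashed line the median of all tested probe sets (0.04). Most replication-dependent points lie left of 0, down to -1.22 for H2bc18, while the replacement points lie on both sides of 0, from -0.43 for H3f3a and H3f3b to 0.25 for H2aj, apart from those of Macroh2a2 at 1.37 and 1.77.

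The promoters of the genes behind the members are given by RefSeq for 61 of the 68 genes (build GRCm38.p6). The 150 bases before the start of H2bc18 and H1f4, the lower-called genes on a probe set of their own with an entry that differed most, and of Macroh2a2, which was higher, are printed 5′ to 3′, with capitals for 3 motifs on either strand: the CCAAT box, the TATA box searched as TATAAA, and the octamer known from H2B promoters, ATTTGCAT. The window of H2bc18 is chr3:96269550-96269699 (plus strand), that of H1f4 is chr13:23622559-23622708 (minus strand) and that of Macroh2a2 is chr10:61783865-61784014 (minus strand), which lies inside the annotated span of the gene.
H2bc18: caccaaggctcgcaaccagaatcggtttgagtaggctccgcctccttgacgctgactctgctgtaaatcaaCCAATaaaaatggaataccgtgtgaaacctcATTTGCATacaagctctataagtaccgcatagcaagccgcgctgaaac
H1f4: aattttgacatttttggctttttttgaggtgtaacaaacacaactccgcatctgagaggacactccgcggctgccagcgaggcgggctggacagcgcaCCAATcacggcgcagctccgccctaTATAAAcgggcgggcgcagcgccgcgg
Macroh2a2: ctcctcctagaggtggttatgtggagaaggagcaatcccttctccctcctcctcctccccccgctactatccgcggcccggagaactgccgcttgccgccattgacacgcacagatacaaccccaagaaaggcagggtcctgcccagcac
H2bc18 holds a CCAAT and the octamer in this stretch, H1f4 a CCAAT and a TATAAA, and Macroh2a2 none of the 3. Over the 250 bases before the start, CCAAT was found in 78.4% of 51 replication-dependent promoters and in 33.8% of all 32851 promoters in the table. It was found at least 2 times in 66.7% of the former and 10.1% of all. TATAAA was found in 39.2% of replication-dependent and 12.4% of all promoters, and ATTTGCAT in 17.6% against 1.6%. Of 11 replacement promoters, 54.5% held CCAAT, 45.5% held it at least 2 times, and 9.09% held TATAAA and 9.09% ATTTGCAT. A high share of CCAAT was thus not particular to replication-dependent promoters. All 13 H2B promoters held CCAAT and 4 of them the octamer. These are letter matches in a fixed window, none of the 3 motifs contains another, and they bear on no difference between the groups.

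Among H2B genes, H2bc18 and H2bc21 fell; both belong to the Hist2 cluster on chromosome 3. H2bc18 (Hist2h2bb, chr3:96269700-96270192) read 7.04, 6.67, 7.47 and 6.94 in control arrays 1 to 4 and 5.58, 5.58, 6.44 and 5.65 in menin-deficient arrays 1 to 4. All 4 menin-deficient values lay below the controls, with the third array standing above the other menin-deficient ones. Menin-deficient arrays 1 and 2 both read 5.583, and the reason for this repeat was not tested. The means were 7.03 ± 0.331 and 5.81 ± 0.420, a log2 difference of -1.22 (SE 0.248, adjusted p = 0.0223), or 2.33-fold lower. H2bc21 (Hist2h2be, chr3:96221072-96223738) read 12.71, 12.10, 12.82 and 12.88 in control and 12.13, 11.68, 11.32 and 11.66 in menin-deficient arrays on its _s_at probe set. The lowest control array lay just under the highest menin-deficient array, so the groups overlapped. The difference was -0.93 (SE 0.228, adjusted p = 0.0387), or 1.91-fold lower. The _at probe set of H2bc21 differed by -0.01 (95% confidence interval -0.63 to 0.61). The fall of this gene was thus called on the _s_at probe set alone, whose interval of -1.47 to -0.39 overlapped that of the _at probe set.

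Other H2B probe sets did not pass. The one shared by 11 genes differed by -0.31 (interval -0.66 to 0.04, adjusted p = 0.216), and the lowest of its values was that of menin-deficient array 4. H2bc22 differed by -0.25, and all its menin-deficient arrays lay below the controls. The widest intervals were at probe sets with a positive difference: 0.78 (-0.62 to 2.19) for the one shared by 6 genes, and 0.59 (-0.39 to 1.57) for that of H2bu2 and its pseudogene H2bu1-ps. Over the 9 tested H2B probe sets the median difference was -0.10.

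Linker histone H1 is represented by 4 tested probe sets, of which 2 fell. H1f4 (Hist1h1e, H1.4, chr13:23621777-23622558) read 6.30, 6.0, 5.64 and 5.74 in control and 5.24, 5.16, 5.24 and 5.27 in menin-deficient arrays. The menin-deficient arrays were close together and all below the controls, which were more spread. The means were 5.92 ± 0.294 and 5.23 ± 0.0461, a difference of -0.70 (SE 0.140, adjusted p = 0.0214), or 1.62-fold lower. H1f2 (Hist1h1c, H1.2, chr13:23738807-23739531) has several probe sets. On the one that was called it read 13.44, 13.27, 13.34 and 13.03 in control and 12.85, 12.54, 12.91 and 12.44 in menin-deficient arrays, without overlap. The difference was -0.58 (SE 0.137, adjusted p = 0.0341), or 1.5-fold lower. On a second one, also of the _a_at type, the same gene read 13.80, 13.56, 13.77 and 13.68 in control and 13.63, 13.78, 13.85 and 13.60 in menin-deficient arrays, and the groups were interleaved. Its difference there was 0.01, with an interval from -0.17 to 0.20 that does not reach -0.58. A further probe set of H1f2 sat at the lowest value of the table in all 8 arrays. H1f6 (Hist1h1t), a testis H1, was near that floor in both groups, with means of 3.00 and 2.84.

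Core histones H4 and H3 each had 1 probe set that fell, in both cases one shared by many copies. The H4 probe set, of the _s_at type and annotated to 13 genes, read 13.62, 13.93, 13.74 and 13.52 in control and 13.18, 13.14, 13.39 and 13.12 in menin-deficient arrays. All menin-deficient arrays were lower than all controls, by a difference of -0.49 (SE 0.103, adjusted p = 0.0240), or 1.41-fold. The other tested probe sets of the same 13 genes differed by -0.24, -0.12 and 0.13, and none passed. The H3 probe set, of the _s_at type and annotated to 12 genes, read 10.65, 10.78, 10.69 and 10.53 in control and 10.39, 10.31, 10.44 and 10.30 in menin-deficient arrays. Again no array of one group reached the other, and the difference was -0.30 (SE 0.0624, adjusted p = 0.0236), or 1.23-fold. All 8 H3 probe sets had a negative difference, from -0.63 for H3c7 (adjusted p = 0.142) to -0.01 for H3c11. They are not readings of separate genes, since all are annotated to genes among the same 12. A second probe set annotated to all 12 lay near the floor, with a mean of 2.66. No other H3 probe set passed.

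None of the 6 H2A probe sets passed the threshold in limma, and 3 were lower at an unadjusted p under 0.05. The one shared by 10 genes read 14.47, 14.40, 14.29 and 14.43 in control and 14.31, 14.10, 14.25 and 14.12 in menin-deficient arrays. Its difference of -0.21 (interval -0.36 to -0.05, adjusted p = 0.0833) was small, and the groups overlapped by a single pair of arrays. H2ac19 (Hist2h2aa2, chr3:96239779-96240374) had the largest difference, -0.75 (interval -1.35 to -0.15, adjusted p = 0.0959), on its _at probe set. There the controls ranged from 8.64 to 9.86 and the menin-deficient arrays from 8.25 to 8.60, without overlap. Its _x_at probe set differed by -0.38. A further _at probe set, shared by H2ac19 and H2ac18, differed by -0.01 (interval -0.59 to 0.57). The difference was thus near 0 on this probe set, but its interval overlapped those of the other H2ac19 probe sets. H2aw (Hist3h2a), from the Hist3 cluster on chromosome 11, differed by 0.18 and -0.24 on its own pair of probe sets.

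**Figure D2:**
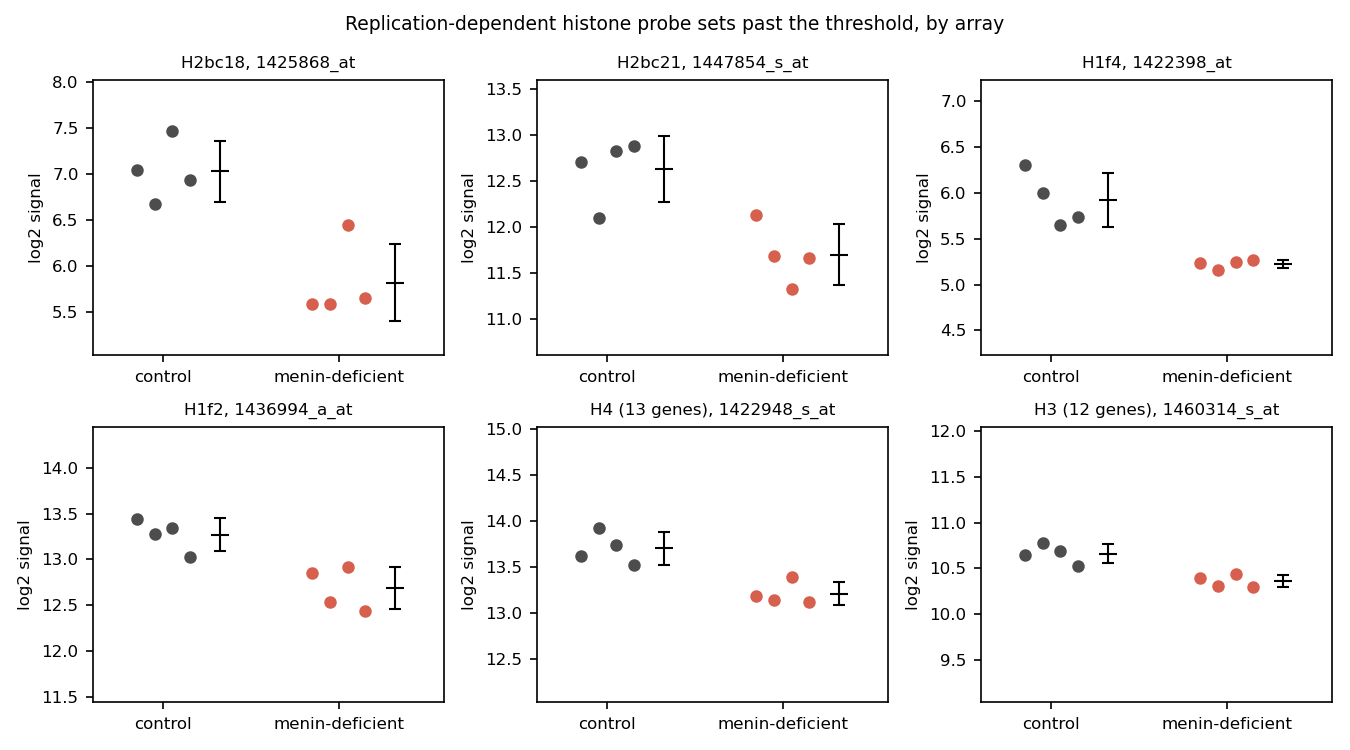
Log2 signal of the 6 replication-dependent histone probe sets called lower, 1 point per array in order of replicate number, with the group mean and SD beside them; each panel has its own axis, all spanning the same number of log2 units. The groups are apart in every panel except that of H2bc21, where the highest menin-deficient array (12.13) reaches the lowest control (12.10).

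Calls were made in H1, H2B, H3 and H4 and at each level of signal, with none in H2A or on members from Hist3 alone. Probe sets annotated to 1 gene gave 4 lower calls among 15 tested (median -0.33) and those annotated to several gave 2 among 16 (median -0.12). Members from the Hist2 cluster alone were all negative, 6 of 6, with a median of -0.56 and 2 calls. They read only H2bc18, H2bc21, H2ac19 and H2ac18, with several probe sets for the same gene. The _at probe set of H2bc21 and the one shared by H2ac19 and H2ac18 each differed by just -0.01. Over all tested probe sets, 4.87% were called lower. Members from Hist1 alone had 2 calls among 14 (median -0.18) and members from Hist3 alone had 0 among 3 (median 0.18). Differences between these loci were not tested. At mean signals of 10 to 18, 4 of 11 replication-dependent probe sets fell (median -0.30), where 6.65% of all tested probe sets were lower and the median was 0.09. From 6 to 10, 1 of 10 fell (median -0.23; all probe sets 5.75% and 0.07), and from 2 to 6, 1 of 10 (median -0.12; all probe sets 1.46% and 0.00). The within-group SD had a median of 0.297 in replication-dependent and 0.194 in all tested probe sets. Of the latter, 7600 had mean signals of 2 to 6, and the SDs were not compared at matched signal. Within the replication-dependent members the median SD was 0.225 at mean signals of 10 to 18.

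**Figure D3:**
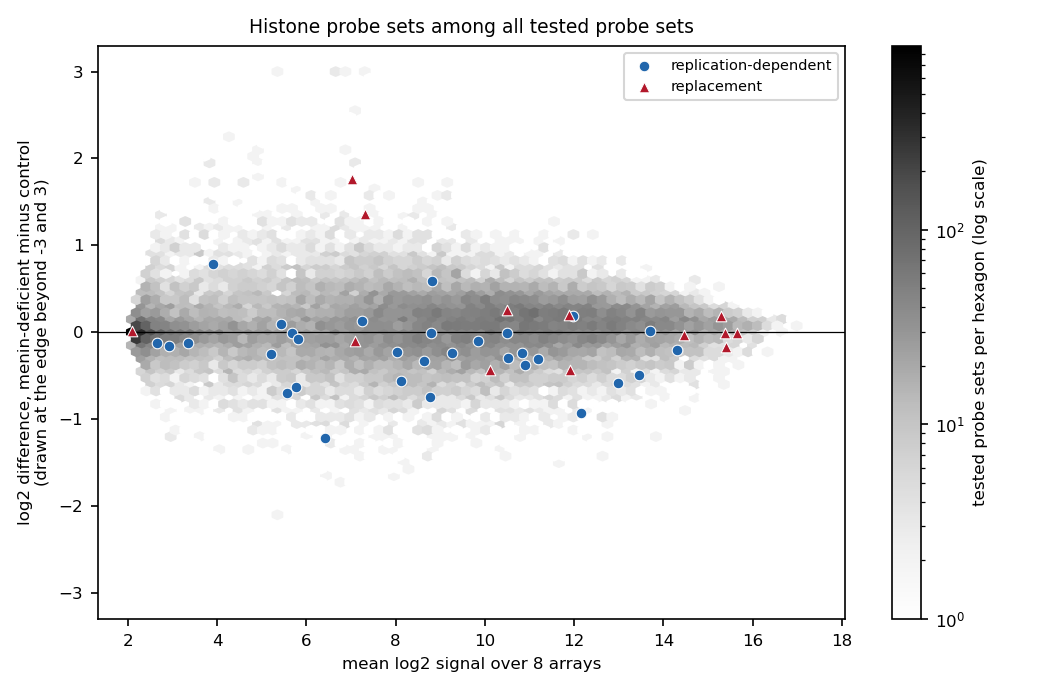
Log2 difference against mean log2 signal over 8 arrays for all 26790 tested probe sets (grey hexagons, shaded by their number on a log scale), with replication-dependent histone probe sets as blue circles and replacement ones as red triangles; differences larger than 3 in either direction are drawn at the edge. The blue circles lie mostly under 0 at all levels of signal, and the highest red triangles, at 1.37 and 1.77, are those of Macroh2a2.

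The type of probe set, marked by its suffix, goes with direction in the whole table, so the calls are given by type as well. An _x_at probe set holds probes that can match unrelated transcripts, and _s_at and _a_at probe sets match several transcripts or 1 gene's isoforms. Lower calls made up 3.94% of all _at probe sets, 5.39% of _a_at, 6.95% of _s_at and 13% of _x_at, and higher calls 8.98%, 13.6%, 9.34% and 5.29%. Among replication-dependent members, 2 of 22 _at, 1 of 3 _a_at, 3 of 4 _s_at and 0 of 2 _x_at probe sets fell. The medians were -0.14 for _at and -0.40 for _s_at. The part of the probe set type in these calls was not tested.

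On the level of single arrays, the median deviation of the 31 probe sets from their control means was -0.13 to 0.07 in the 4 controls and -0.38 to -0.16 in the 4 menin-deficient arrays. Menin-deficient array 4 was the lowest and control array 4 the highest. For the 13 replacement probe sets the same deviation was -0.05 to 0.01 in control and 0.01 to 0.06 in menin-deficient arrays. The 13 include a probe set of Macroh2a3 that stayed near the floor, at 2.08 to 2.11, in both groups. Over all tested probe sets it was -0.03 to 0.01 and 0.02 to 0.05.

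The number of replication-dependent calls depended on single arrays. It dropped to 0 without menin-deficient array 2 (9 at an unadjusted p under 0.05) and without menin-deficient array 4 (7), to 1 without control array 1 and to 2 without control array 3. It was 4 or 5 without any other array, and the number of calls over all probe sets dropped as well, to between 1796 and 3375 from 3808. The median difference stayed between -0.25 and -0.16. Each of the 6 probe sets kept its direction, with adjusted p-values up to 0.0994 (H2bc21, without menin-deficient array 2). H1f2 also missed the threshold with sex as a covariate (-0.60, adjusted p = 0.0567).

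Macroh2a2 (H2afy2, chr10:61738640-61784604), which encodes macroH2A2, rose on both of its probe sets. On the _x_at probe set it read 6.5, 6.63, 6.87 and 6.5 in control and 8.49, 8.10, 7.84 and 7.54 in menin-deficient arrays. The lowest menin-deficient array was well above the highest control, and the menin-deficient arrays were more spread. The means were 6.63 ± 0.176 and 7.99 ± 0.403, a difference of 1.37 (SE 0.205, adjusted p = 0.00944), or 2.58-fold higher. On the _a_at probe set, also annotated to the pseudogene Macroh2a3, it read 6.10, 6.15, 6.33 and 6.02 in control and 8.02, 8.13, 7.57 and 7.96 in menin-deficient arrays. The groups were again far apart, by 1.77 (SE 0.131, adjusted p = 0.00136), or 3.40-fold. The probe sets of Macroh2a3 alone lay at or near the floor, at 2.08 to 2.11 in all 8 arrays. With sex as a covariate (1 male control and 2 male menin-deficient mice by Xist and Eif2s3y) the differences were 1.24 and 1.69, both past the threshold. Leaving out any 1 array did not end either call.

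Markers of other lineages were read on the brightest tested probe set of each gene, where 13.6% of all 11885 genes were called higher and 4.38% lower. Of 8 T-cell markers 5 were tested and 4 rose, with a log2 summed level of 9.32 to 10.01 in control and 11.33 to 11.78 in menin-deficient arrays, while Cd3e, Cd3d and Cd4 were at or near the floor. Of 6 NK markers tested 2 rose, 3 at an unadjusted p under 0.05 (summed 10.87 to 11.50 and 11.61 to 12.71). Of 7 plasmacytoid dendritic markers 2 rose, 5 unadjusted (11.85 to 12.80 and 12.97 to 13.51). Of 10 monocyte, macrophage and neutrophil markers 1 rose, 2 unadjusted, and their summed levels overlapped between the groups (13.91 to 14.30 and 14.20 to 15.04). None of 6 erythroid markers was called, and none had an unadjusted p under 0.05 (summed 10.02 to 11.10 and 9.73 to 10.80), and Hba-a1 was near the floor. Of the pro-B markers 1 rose, Dntt (0.35, with other probe sets at -0.44 and 0.23), and 1 fell, Rag1 (-0.28, adjusted p = 0.0434 by limma). Cre was under Rag1 control in the menin-deficient mice only, so for Rag1 its effect and that of losing menin cannot be told apart. The part of the other lineages in the differences of Macroh2a2 and of the other histones was not tested.

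The remaining replacement histones did not pass the threshold. Macroh2a1 (H2afy), the other macroH2A gene, read 15.17, 15.16, 15.32 and 15.11 in control and 15.36, 15.41, 15.34 and 15.39 in menin-deficient arrays. The groups did not overlap, but the difference was 0.19 (interval 0.06 to 0.31, adjusted p = 0.0558). It passed in 5 of 20 alternative settings and not in the other 15. The 5 were 1 probe set per gene, a trended variance, array weights, a threshold of 0.10, and leaving out control array 3 (0.23, adjusted p = 0.0183).

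H2A.Z, the variant found at promoters, is encoded by H2az1 and H2az2. H2az1 read 15.63, 15.73, 15.54 and 15.74 in control and 15.68, 15.64, 15.72 and 15.56 in menin-deficient arrays, and H2az2 stayed between 15.28 and 15.45 in all 8 arrays. Their groups were interleaved. The differences were -0.01 (interval -0.16 to 0.13) for H2az1 and -0.01 (-0.12 to 0.10) for H2az2, and on the second probe set of each -0.17 and 0.20. H2aj, an H2A variant with a polyadenylated mRNA, differed by -0.03 (-0.27 to 0.21), and by 0.25 and -0.10 on its other probe sets.

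H3.3, the replacement H3, is encoded by H3f3a and H3f3b, each of which had a single member probe set. H3f3a read 10.61, 10.35, 9.91 and 10.43 in control and 9.46, 9.99, 9.69 and 10.44 in menin-deficient arrays. H3f3b read 11.90, 11.86, 12.09 and 12.66 in control and 11.11, 11.23, 12.28 and 12.17 in menin-deficient arrays. Both pairs of groups overlapped widely, and both differences of -0.43 had intervals that hold 0 (-1.0 to 0.13 and -1.21 to 0.35). H1f7, H1f8, H1f10 and H2al2a were at or near the floor and were not tested.

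**Figure D4:**
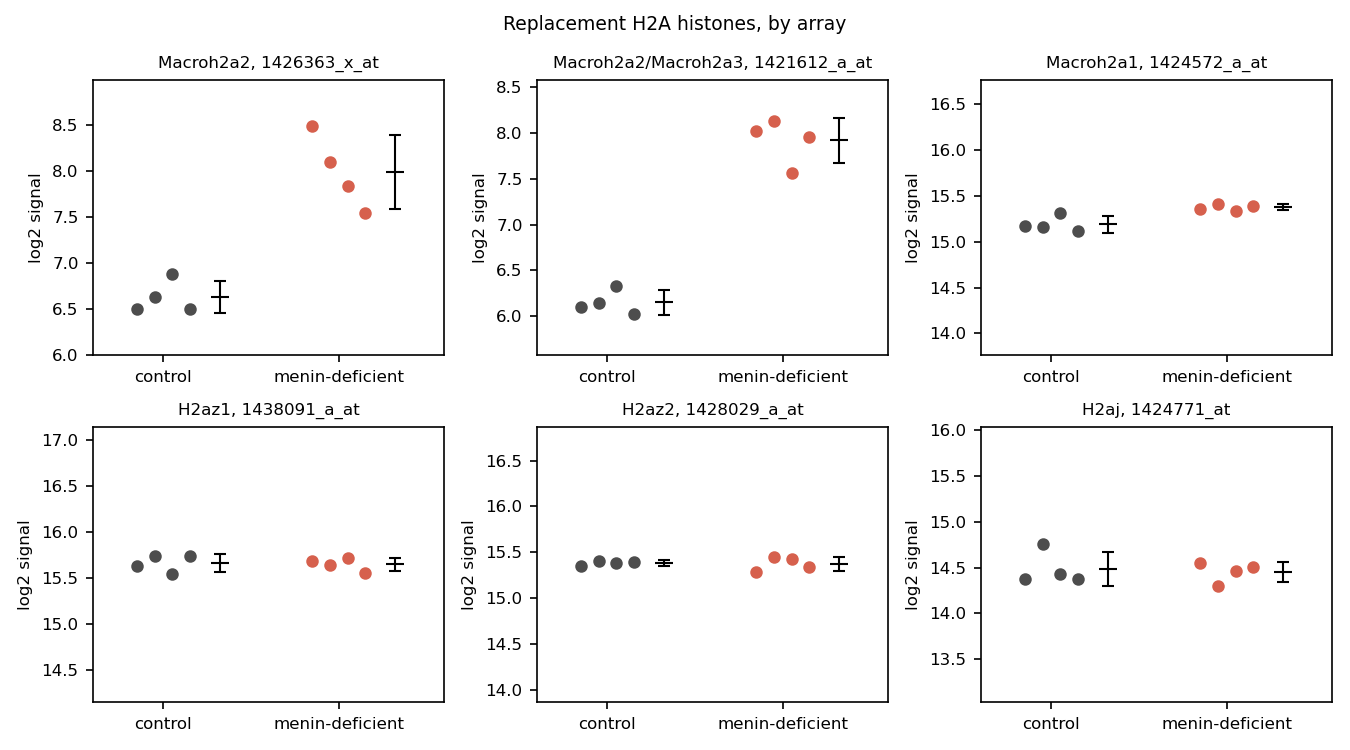
Log2 signal of 6 replacement H2A probe sets, 1 point per array in order of replicate number, with the group mean and SD beside them; each panel has its own axis. Both probe sets of Macroh2a2 are higher in all 4 menin-deficient arrays, the one of Macroh2a1 by 0.19, and the groups of H2az1, H2az2 and H2aj are interleaved.

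A further 8 probe sets carry a histone of the rule together with another symbol and are not members. At an unadjusted p under 0.05 in limma, 6 were higher and 1 lower. In 4 every menin-deficient array lay above every control and in 1 below, against 14.3% and 7.05% of all tested probe sets. Of the 8, 5 read H3f3a and H3f3b with their pseudogene copies, and they differed by 0.05 to 0.17 with none called, the opposite sign of the H3.3 members. Their mean signals were 15.46 to 16.12, against 10.11 for the H3f3a member and 11.91 for the H3f3b member. An H2az1 probe set shared with Gm8203 fell on an _x_at probe set (-0.64, adjusted p = 0.0123), while an _a_at probe set with the same symbols differed by 0.11 (adjusted p = 0.118). A probe set shared by H2aw and Trim17 differed by 0.94 (adjusted p = 0.138). Counting these with the members left 6 replication-dependent calls and gave 3 replacement calls, 2 higher and 1 lower.

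Genes that make and process histone mRNA were taken as a list of 16, each on its brightest tested probe set. Of these 3 fell, 0 rose and 13 did not pass (at an unadjusted p under 0.05, 4 lower and 1 higher), with a median of -0.02, beside 4.38% lower, 13.6% higher and a median of 0.11 over all 11885 genes read this way. Npat, the activator of replication-dependent histone transcription, read 11.45, 11.38, 11.22 and 11.24 in control and 10.76, 10.92, 10.77 and 11.01 in menin-deficient arrays. All its menin-deficient arrays were lower, by a difference of -0.45 (SE 0.0800, adjusted p = 0.0146), and its second probe set differed by -0.36. Sympk read 7.84, 7.96, 8.31 and 8.28 in control and 7.30, 7.36, 7.36 and 7.36 in menin-deficient arrays. The last 3 were equal to the digits kept, and the reason was not tested. Values above the floor also repeated on other probe sets: Lsm11 read 7.832 and H1f6 2.999 on several arrays of both groups. Whether such repeated values are measured levels was not tested, so the sizes of the falls of Sympk and H2bc18 are uncertain. Sympk, the scaffold symplekin of the histone pre-mRNA cleavage complex, fell by 0.75 on the log2 scale (adjusted p = 0.00939), with a second probe set at -0.15. Casp8ap2, known as FLASH, which acts in the same processing step, fell by 0.38 (adjusted p = 0.0426) and passed in 11 of 20 alternative settings. Slbp, which binds the stem-loop, differed by 0.15 (interval -0.11 to 0.42, adjusted p = 0.409), with a second probe set at -0.23.

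Among replication-coupled chaperones none of 13 tested genes was called by limma (1 at an unadjusted p under 0.05, higher), and the median was 0.07. Asf1b, which carries H3 and H4 for assembly on new DNA, differed by 0.21 (adjusted p = 0.225). Of 19 tested genes for chaperones and exchange of replacement histones, 4 rose, 1 fell and 14 did not pass (5 higher and 1 lower unadjusted). Their median of 0.11 was that of all genes read this way, of which 13.6% were called higher and 4.38% lower. Dmap1 (0.45), Ruvbl2 (0.37) and Ruvbl1 (0.30), subunits shared by H2A.Z exchange complexes, rose, as did Daxx (0.28, adjusted p = 0.0316), an H3.3 chaperone. Dmap1 passed in 20 of 20 alternative settings, Ruvbl2 in 11 and Daxx in 8; Ruvbl1 was not run under them. Actl6a fell on an _x_at probe set (-0.50), while its other probe sets differed by 0.23 and 0.30. Hira and Atrx, which act with H3.3, differed by -0.10 and -0.13 on their brightest probe sets and did not pass there. The other probe sets differed by -0.06 and 0.07 for Hira, and by -0.54 to 0.28 for Atrx.

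The S-phase list, given because replication-dependent histone mRNA is made in S phase, held 31 tested genes. Of these 1 rose, 3 fell and 27 did not pass (4 higher and 5 lower unadjusted), with a median of 0.03, beside 13.6% higher, 4.38% lower and a median of 0.11 over all genes. The summed level of the list was 18.84 to 19.01 in control and 18.85 to 18.96 in menin-deficient arrays. Gins2 rose by 0.47. Ccne2, a cyclin E that acts at the entry into S phase, fell by 0.58 on the log2 scale; its groups overlapped, and it passed in 11 of 20 alternative settings. Ccne1 (-0.37) and Mcm5 (-0.20) fell on _x_at probe sets, while their other probe sets differed by 0.25, and by 0.16 and 0.04. The part of the cell cycle in the histone differences was not tested.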

How the data were processed

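Total RNA of sorted cells was amplified, labelled with biotin and hybridised to Affymetrix GeneChip arrays of the mouse genome, per the labels' protocols. The authors deposited log2 values, as their range shows. MAS5 and GCRMA are named in the submitters' processing notes; the step each was used for is not given in the sources. Precision is set by the 4 arrays of each group. Between 39.0% and 39.6% of probe sets per array lay within 0.01 of the floor of 2.08, which compresses low differences. No 2 arrays held the same values.

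Symbols of the rule are older than those of the platform table, where only 11 probe sets fit it by current symbol. Members were therefore matched through Entrez identifiers to RefSeq synonyms (GRCm38.p6), which held all 68 genes. A further 64 control probe sets were left out. Of 84 protein-coding genes that fit the rule, 18 had no member and were not analysed here.

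A probe set was tested (26790 were) if 4 or more of the 8 arrays read it above their 40th percentile. The model was limma's (version 3.58.1, R 4.3.3; lmFit, then eBayes) with no covariates. Probe sets and not genes were fitted, because many histone probe sets carry several symbols. The fit was tested on simulated data. The labels call the samples biological replicates. Genes were named by a rule: called members, the brightest probe set of each replacement gene, the brightest 2 in each replication-dependent family, some chaperone and processing genes, the lowest p-values in each list, and Men1. H2bc22, H2ac19, H3c7, Ruvbl1, the less bright probe sets and those with another symbol were chosen after their values were seen. Members and lists were chosen with earlier results of these data known. Chaf1a was on the naming list and is not reported here, since no probe set carries it as its 1 symbol. Alternatives were quantile normalization, centring, 2 other filters, 1 probe set per gene, no _x_at or _s_at probe sets, trended or robust variance, weights per array, a block for replicate number, sex, a threshold of 0.10, and each array left out. The wider member rule was added after seeing the data. Plots were drawn with matplotlib 3.10.9.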

Additional observations from a re-analysis of the deposited data

Results flagged for a closer look

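Among 41 named probe sets, the highest or lowest array of a group stood far from the other 3 in 4 of 82 groups. For values without ties, chance flags about 1 in 20 groups. The 82 include both groups of H1f7, H1f8 and H2al2a and the menin-deficient group of H1f10, which sat wholly at the floor and could not be flagged. The rate does not hold for such groups or for repeated values. For H2bc18, menin-deficient array 3 was the highest of its group at 6.44, where the other 3 lay between 5.58 and 5.65. For H1f10, control array 2 was the highest at 2.31, while the other 7 arrays sat at the floor of 2.08. For H2aj, control array 2 was the highest control at 14.8. For Sympk, menin-deficient array 1 was the lowest of its group at 7.30, where the other 3 lay at 7.36, so the gap is small.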

How the results depend on the processing

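Of 6 replication-dependent calls, 1 was left with no filter on low values, 3 with 1 probe set per gene and 3 without _x_at and _s_at probe sets. Leaving out each array in turn gave 0 to 5. Of 2 replacement calls, 1 was left without _x_at and _s_at probe sets, and leaving out arrays gave 2 to 3. Over all probe sets, 3808 calls became 1935 with no filter, 2536 with 1 probe set per gene and 5902 at a threshold of 0.10, and 1796 to 3375 with an array left out. Quantile normalization, centring, the 60th percentile filter, trended and robust eBayes, array weights and sex as a covariate left 5 to 9 replication-dependent and 2 or 3 replacement calls. The median difference of replication-dependent probe sets was -0.33 with 1 probe set per gene and -0.25 to -0.16 with an array left out. That of replacement probe sets, -0.01, was -0.0423 after quantile normalization, -0.0671 after centring and -0.0273 to 0.0516 with an array left out. With fewer or other probe sets or arrays the number tested changes; other causes were not tested. No named result that was called reversed.

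Replicate numbers did not pair the samples: deviations of same-numbered arrays correlated at -0.05, -0.26, -0.14 and 0.08, and none had its own number as its best partner. With the replicate block 2 replication-dependent, 1 replacement and 1083 of all probe sets were called. The _x_at probe set of Macroh2a2 then had an adjusted p of 0.0531 by limma. Probe sets at the floor give no order, and shared histone copies cannot be told apart by these probe sets.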
